A study of Homo sapiens with 54 samples.

Results

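The genes described here encode the vacuolar proton pump of the lysosome, its accessory subunits, the cathepsins and the lysosome-associated membrane proteins (LAMPs). They were taken by name: every row of the deposited value table that was annotated with exactly 1 gene symbol of the forms ATP6V0 or ATP6V1 with a subunit letter, ATP6AP1, ATP6AP2, CTS with a letter, or LAMP1 to LAMP3. The rule found 40 genes among 18417, each with a single row, and rests on names rather than on measured values. The names ATP6V1G2 and ATP6V0A4 had no row of their own and were not analysed here.

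The vacuolar ATPase carries protons into lysosomes and other compartments. Its peripheral V1 sector (A to H subunits) breaks down ATP in the cytosol, its membrane V0 sector (a, c, d and e subunits) holds the proton path, and ATP6AP1 and ATP6AP2 are accessory proteins needed to assemble it. Cathepsins are proteases, most of them of the cysteine class, that are active at the low pH the pump produces. LAMP1 and LAMP2 are the most abundant glycoproteins of the lysosomal membrane. Many of these genes carry a short promoter element bound by TFEB, TFE3 and MITF, transcription factors of lysosome biogenesis.

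NCI-H460 is an established line of human lung large cell carcinoma, and its RNA was measured on 54 one-colour arrays in 18 groups of 3. All wells were kept in serum-free medium before and during treatment. The pretreatment was none, 5 µM nicotine, or cigarette smoke extract at a dose equivalent to 5 µM nicotine. After 2 h with it, the cells received no therapy, a single dose of 6 Gy from a cesium source, or 1 µM cisplatin, and were collected 2 h or 24 h later. Untreated cells were therefore the control of each time, and every combination of 3 pretreatments, 3 therapies and 2 times was measured. The labels call the 3 samples of a group biological replicates. All came from 1 line at 1 passage and were treated at the same time on 9 plates, so the spread between them is that between wells. Levels are the deposited values, taken as log2 from their range. A gene was called where limma's test over all 18417 genes gave an adjusted p under 0.05.

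The line expressed keratins of simple epithelium, KRT8, KRT18 and KRT19, at mean levels of 11.96, 11.26 and 11.54. The epithelial genes EPCAM and CDH1 lay at 5.28 and 5.07, no higher than genes that such cells do not use. As a measure of that level, 365 olfactory and bitter taste receptor genes had a 95th percentile of 6.12. Of the leukocyte markers 2 of 7 lay above it (CD68 and CD14), of the fibroblast markers 4 of 5, and of the endothelial markers 0 of 4. The list means per array ran from 8.87 to 9.20 for epithelial, 5.52 to 5.91 for leukocyte, 5.83 to 6.31 for fibroblast and 5.10 to 5.72 for endothelial markers. Array medians ran from 6.43 to 6.63, and arrays of 1 group correlated at 0.979 to 0.996.

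Most of the 40 genes were well expressed: 30 lay above the receptor level of 6.12, and 27 above the median gene, which lay at 7.04. The highest means were those of CTSL (cathepsin L, 11.79), CTSC (cathepsin C, 11.79) and ATP6V0E1 (an e subunit of the membrane sector, 11.51). The lowest were those of ATP6V0D2 (2.62), CTSS (4.12) and ATP6V1G3 (4.64), subunits or proteases known from specialised cells. By role, 9 of 12 V1 genes, 7 of 8 V0 genes, both accessory genes, 8 of 11 cysteine cathepsins, 2 of 4 other cathepsins and 2 of 3 LAMP genes lay above the receptor level. The other 10 genes were ATP6V1C2, ATP6V1E2, ATP6V1G3, ATP6V0D2, CTSV, CTSW, CTSS, CTSG, CTSE and LAMP3. Their deviations from the group means correlated with the mean of the receptor genes at -0.30 to 0.78 (median 0.35) over 54 arrays, against -0.74 to 0.28 (median -0.41) for the 30 others. These correlations share the arrays and their background, and are given as a description. Levels of different genes come from different probes and are not compared further.

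**Figure D1:**
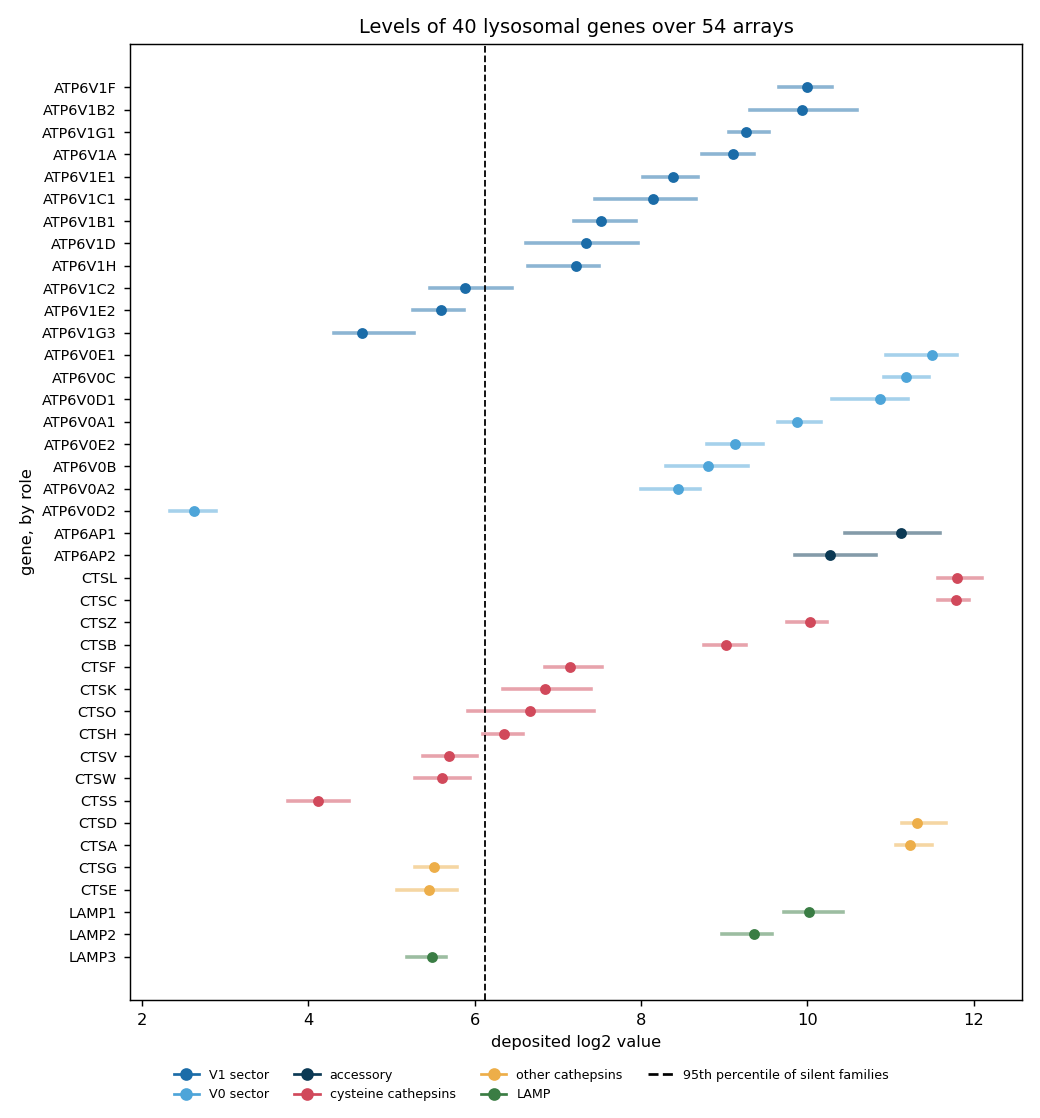
Deposited log2 value of each of the 40 genes, by role: the point is the mean of 54 arrays and the line runs from the lowest to the highest array. The dashed line at 6.12 is the 95th percentile of 365 receptor genes, and 30 of the 40 means lie to its right.

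Promoter windows of RefSeq (GRCh38.p14, 250 bases before to 50 after a start) were at hand for 26 of the 40 genes, in 31 windows. The letters CACGTG, the core of the element bound by TFEB and its relatives, were found on either strand in 9 of these 31 windows (29.0%), and in 7.26% of all 35116 windows of this length. The longer TCACGTGA, which contains it, was found in 4 member windows (12.9%) and in 0.980% of all. The 8 genes with CACGTG were ATP6V0B, ATP6V0D1, ATP6V0E2, ATP6V1G1, CTSA, CTSD, CTSF and LAMP1. Among the 9 windows, 2 of ATP6V0E2 overlap and hold the same copy of CACGTG, which is counted for each. Stretches of 4 of these promoters are shown, of genes described below with changed levels. ATP6V0B, ATP6V0E2, ATP6V1G1 and CTSD, whose stretches are not shown, were also called in comparisons below. The LAMP1 window holds more copies than any other member window. Other genes with changed levels below had windows without CACGTG, among them CTSL, ATP6V0A1, ATP6V0A2 and ATP6V1F. ATP6V1B2, CTSO and CTSK had no window. A link between the element and changed levels was not tested. CACGTG is in capitals, and each stretch runs 5′ to 3′ on the strand of the gene and ends at the last base before the start. The LAMP1 stretch is chr13:113296989-113297238 (+), CTSA chr20:45891235-45891334 (+), ATP6V0D1 chr16:67481158-67481257 (-) and CTSF chr11:66568607-66568736 (-).
LAMP1: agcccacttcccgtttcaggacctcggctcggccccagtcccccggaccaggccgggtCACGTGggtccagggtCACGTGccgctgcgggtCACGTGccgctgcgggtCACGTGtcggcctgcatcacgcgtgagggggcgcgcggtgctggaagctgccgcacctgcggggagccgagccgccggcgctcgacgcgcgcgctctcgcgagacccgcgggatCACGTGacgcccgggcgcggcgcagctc
CTSA: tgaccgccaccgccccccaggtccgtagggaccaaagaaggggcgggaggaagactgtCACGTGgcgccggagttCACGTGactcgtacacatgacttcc
ATP6V0D1: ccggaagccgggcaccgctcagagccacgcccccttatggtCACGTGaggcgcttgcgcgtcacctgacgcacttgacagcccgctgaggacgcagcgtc
CTSF: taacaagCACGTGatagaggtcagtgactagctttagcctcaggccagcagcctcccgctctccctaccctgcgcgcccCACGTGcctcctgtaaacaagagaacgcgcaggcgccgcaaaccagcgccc
The stretches hold 5, 2, 1 and 2 copies. A match is a run of letters and was not tested as a binding site.

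Before any treatment effect, 1 pattern among the arrays has to be described. At 24 h the arrays fell into 2 sets that no label explains. They were found after the data were seen, from the first component of the within-group deviations of genes other than the 40, and scored as the mean of 50 genes minus the mean of 50 others. The larger set held 37 arrays (scores 1.69 to 2.13), which were all 27 arrays of 2 h and 10 of 24 h. The smaller held 17 arrays (0.11 to 0.61), all of 24 h. At 24 h all 3 untreated arrays were in the larger set, and all 3 arrays each of extract alone, cisplatin with nicotine and cisplatin with extract in the smaller. The other groups were mixed: the larger set held nicotine 1 and 2, radiation 3, radiation with nicotine 1, radiation with extract 3, and cisplatin 1 and 3. Where a comparison sets one set against the other, treatment and set cannot be told apart, and the 24 h comparisons are therefore also given with the set as a term of the model. That term was estimated from the mixed groups. What the sets are was not tested.

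The accessory gene ATP6AP1 showed the sets plainly. It lay between 11.27 and 11.60 on the 10 arrays of the larger set at 24 h and between 10.45 and 10.86 on the 17 of the smaller set, with no overlap, and between 11.20 and 11.45 at 2 h. Its difference between the sets within groups was -0.75 ± 0.041 (SE, adjusted p = 3.17e-19 by limma's test of the set term). The sets were drawn from within-group deviations of these same arrays, so tests between them are a description. ATP6AP2, also called the prorenin receptor, differed by -0.55 ± 0.050, and ATP6V0E1 by -0.39 ± 0.042. In all, 14 of the 40 genes (35%) differed between the sets, 5 higher and 9 lower in the smaller, beside 30.75% of all genes. The latter share includes the genes from which the sets were drawn. The 9 lower were these 3 with ATP6V1C1 (-0.42), ATP6V1D (-0.35), CTSO (-0.43), CTSV (-0.18), LAMP2 (-0.15) and CTSZ (-0.11). The 5 higher were CTSE (0.37), ATP6V1C2 (0.32), CTSF (0.18), CTSG (0.18) and LAMP1 (0.18).

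**Figure D2:**
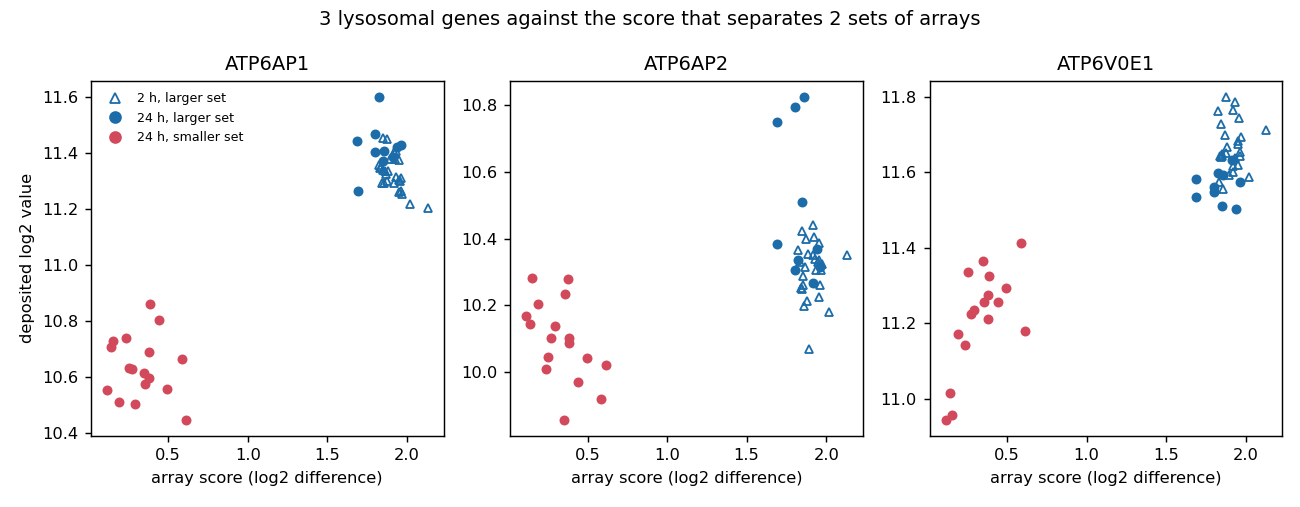
Deposited log2 value of ATP6AP1, ATP6AP2 and ATP6V0E1 on each of 54 arrays against the array score (mean of 50 genes minus mean of 50 others, log2). Blue is the larger set and red the smaller; triangles are 2 h and circles 24 h. For ATP6AP1 the red arrays lie at 10.45 to 10.86 and the blue at 11.20 to 11.60.

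Radiation alone at 24 h, the first question of the design, changed 11 of the 40 genes: 7 rose and 4 fell, a share of 27.5% beside 21% of all genes. The risers were the V1 subunit ATP6V1B2, the V0 subunit ATP6V0A1, 4 cysteine cathepsins (CTSO, CTSK, CTSL and CTSF) and LAMP1, and the fallers were the pump genes ATP6V0E1, ATP6V1F, ATP6V0D1 and ATP6AP1. With the array set as a term the count was 6 (5 higher, 1 lower; 18.9% of all genes): ATP6V1B2, ATP6V0A1, CTSO, CTSL and ATP6V1F remained, and ATP6AP2 was added. Under quantile normalization the split was 8 higher and 1 lower. That of all genes was then 2476 higher and 1941 lower, against 1850 and 2025 without it. The median change of the 40 genes was 0.031, and that of all genes 0.033. Without radiation array 2 the count was 6.

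In the V1 sector, ATP6V1B2 encodes the B2 isoform of the subunit that, with subunit A, forms the ring where ATP is broken down. It was at 10.03, 9.95 and 10.06 in untreated cells and at 10.57, 10.47 and 10.57 after radiation. The groups did not overlap, and all 3 irradiated arrays, from both sets, were high. The rise was 0.53 ± 0.080 (SE; 1.44-fold, adjusted p = 1.81e-06), and 0.58 with the set as a term (6.69e-07). ATP6V1F, subunit F of the central stalk, was at 10.08, 10.16 and 10.23 untreated and at 9.87 on each irradiated array. Its fall was -0.28 ± 0.087 (adjusted p = 0.0135; 0.03 with the set), and its call was lost without untreated array 3 (adjusted p = 0.0738) and under quantile normalization.

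In the V0 sector, ATP6V0A1, the a1 isoform of the large membrane subunit, was at 9.80, 9.79 and 9.84 untreated and at 10.16, 10.09 and 10.05 irradiated. All irradiated arrays were above all untreated ones. Its rise of 0.29 ± 0.072 (adjusted p = 0.00197) kept its call under all 11 alternatives that were run and without each of the 6 arrays. These alternatives include averaging the rows of a gene, which could not change the values of a gene with a single row. ATP6V0D1, the d1 subunit that joins the sectors, was at 10.91, 10.94 and 10.95 untreated and at 10.74, 10.65 and 10.76 irradiated, also without overlap. Its change was -0.22 ± 0.074 (adjusted p = 0.0292), and -0.15 with the set (adjusted p = 0.172). The call was lost without any of the 3 untreated arrays or irradiated arrays 1 or 2 (adjusted p up to 0.141). ATP6V0E1 was at 11.63, 11.56 and 11.60 untreated and at 11.02, 10.96 and 11.55 irradiated. Irradiated array 3, the one of the larger set, lay near the untreated level. The change was -0.42 ± 0.11 (adjusted p = 0.00278), -0.16 with the set (0.0928), and without irradiated array 2 the adjusted p was 0.0603.

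The accessory genes depended on the set. ATP6AP1 was at 11.39, 11.40 and 11.60 untreated and at 10.71, 10.73 and 11.47 irradiated, so that only the array of the larger set was within the untreated range. Its change of -0.49 ± 0.18 (adjusted p = 0.0417) became 0.0084 with the set (0.966), and the call was also lost without any of the 3 untreated arrays or irradiated arrays 1 or 2 (adjusted p up to 0.246). ATP6AP2 was at 10.27, 10.30 and 10.34 untreated and at 10.14, 10.28 and 10.79 irradiated. Here the array of the larger set was high and the 2 others lay near or below the untreated cells. The change was 0.10 ± 0.14 (adjusted p = 0.7), 0.47 ± 0.082 with the set (2.2e-05) and 0.49 within the larger set, where 1 irradiated array stood against 3 untreated ones.

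Among the cysteine cathepsins, CTSL, an endopeptidase found in most tissues, was at 11.66, 11.59 and 11.57 untreated and at 11.95, 11.85 and 11.98 irradiated. The groups were apart and the 2 sets alike, and the rise of 0.32 ± 0.060 (adjusted p = 6.3e-05) was 0.35 with the set (2.7e-05). CTSO, cathepsin O, rose from 6.41, 6.32 and 6.40 to 6.96, 6.79 and 7.26. Its change was 0.63 ± 0.18 (adjusted p = 0.00982), 0.91 with the set (7.91e-05), and without irradiated array 3 the adjusted p was 0.0714. CTSK, the cathepsin known for degrading bone collagen, was at 6.71, 6.71 and 6.82 untreated and at 7.15, 7.33 and 7.05 irradiated. CTSF, cathepsin F, was at 7.11, 7.14 and 7.09 untreated and at 7.44, 7.49 and 7.31 irradiated. For both, all irradiated arrays were high, and the array of the larger set was the lowest of them. CTSK rose by 0.43 ± 0.12 (adjusted p = 0.00503) and CTSF by 0.30 ± 0.077 (0.00272). With the set as a term neither was called (adjusted p = 0.0592 and 0.0723), and CTSK was not called without irradiated array 2 (0.0576). Of the LAMP genes, LAMP1 was at 9.93, 10.01 and 10.01 untreated and at 10.22, 10.43 and 10.11 irradiated. Its rise of 0.27 ± 0.074 (adjusted p = 0.00542) was 0.16 with the set (0.11), and without irradiated array 2 the adjusted p was 0.117.

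**Figure D3:**
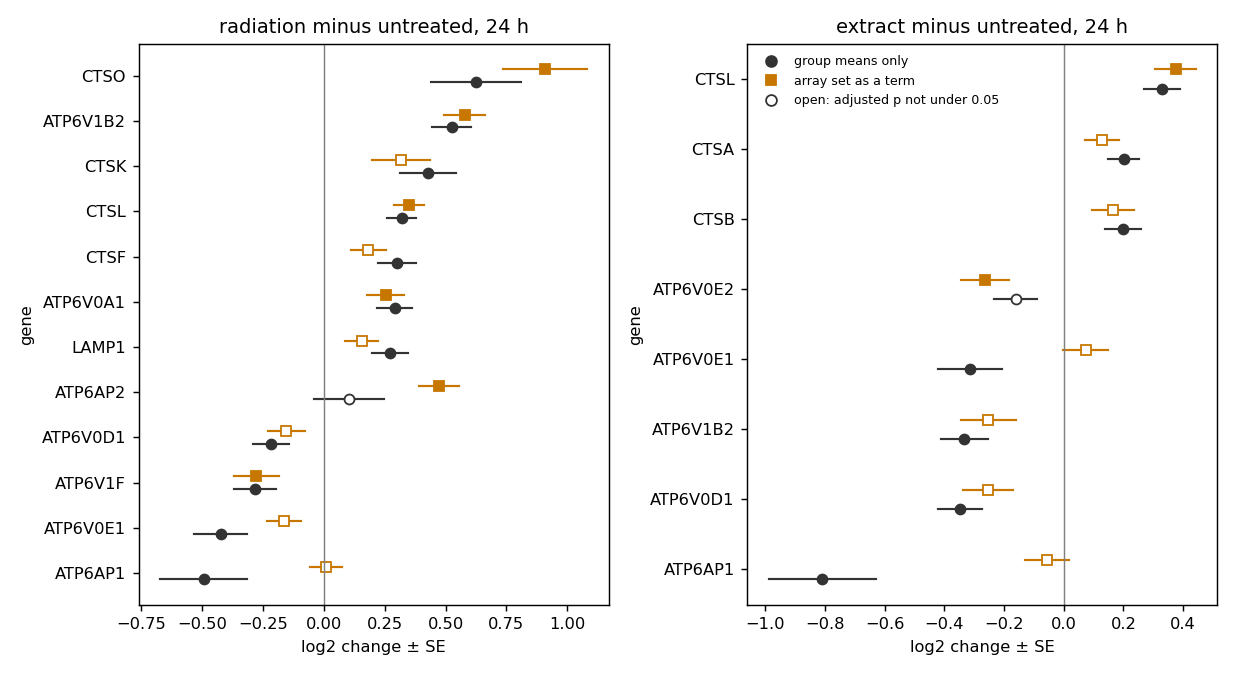
Log2 change ± SE at 24 h of each gene called for radiation against untreated (left) or extract against untreated (right), 3 arrays a group. Black circles are from group means only and orange squares have the array set as a term; open symbols have an adjusted p not under 0.05. ATP6V1B2, CTSL and CTSO stay to the right on the left panel, and ATP6AP1 moves from -0.49 to 0.0084.

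The mean effect of radiation over the 3 pretreatments at 24 h, which uses 9 irradiated and 9 other arrays, was called for 11 genes (9 higher, 2 lower; 32.5% of all genes), and for 13 with the set as a term (11 higher, 2 lower; 33.6%). ATP6V1B2 (0.46 ± 0.046), CTSO (0.62 ± 0.11), CTSL (0.21 ± 0.035), CTSK (0.33 ± 0.067), CTSF (0.24 ± 0.044) and ATP6V0A1 (0.18 ± 0.042) rose in both fits, as did ATP6V1H (0.20 ± 0.065), ATP6V1G1 (0.14 ± 0.041) and CTSA (0.091 ± 0.030). ATP6V0A2, the a2 isoform of the membrane subunit, fell by 0.29 ± 0.044 (adjusted p = 4.65e-07; 2.04e-07 with the set), and ATP6V0B, a proteolipid of the membrane ring, by 0.17 ± 0.068 (0.0463; 0.027 with the set). ATP6AP2 (0.31 ± 0.045, adjusted p = 1.67e-07) and CTSD (0.091 ± 0.036, 0.0424) were called with the set only. All fallers of radiation alone, and LAMP1, were called in neither fit of this mean effect. Without the set ATP6V0E1 was at -0.14 (adjusted p = 0.073), ATP6V1F at -0.072 (0.303) and ATP6V0D1 at -0.051 (0.409). ATP6AP1 was at -0.14 (0.338) and LAMP1 at 0.11 (0.054).

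Extract alone at 24 h changed 7 genes, 3 higher and 4 lower, a share of 17.5% beside 16.1% of all genes. The cathepsins CTSL, CTSA and CTSB rose, and the pump genes ATP6AP1, ATP6V0D1, ATP6V1B2 and ATP6V0E1 fell. This comparison sets 3 arrays of one set against 3 of the other. With the set as a term 2 genes were called (4.52% of all genes), CTSL, higher, and ATP6V0E2, lower. Under quantile normalization the split was 5 higher and 3 lower, and with the receptor mean as a covariate 5 and 4. For all genes these splits were 1807 and 1561, and 2074 and 1872 (1597 and 1362 without either). The medians were -0.032 for the 40 genes and 0.0072 for all.

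In the pump, ATP6V1B2 was at 9.78, 9.70 and 9.56 with extract, all below the untreated values of 9.95 to 10.06. The change was -0.33 ± 0.080 (0.79-fold, adjusted p = 0.00255), and -0.25 with the set (0.117). ATP6V0D1 was at 10.61, 10.64 and 10.51, below all untreated arrays, a change of -0.35 ± 0.074 (adjusted p = 0.000736; 0.0711 with the set). ATP6V0E1 was at 11.29, 11.41 and 11.14, also below. Its change of -0.31 ± 0.11 (adjusted p = 0.0387) was lost without 5 of the 6 arrays in turn, all but extract array 2 (adjusted p up to 0.211), and was 0.074 with the set (0.65). ATP6AP1 was at 10.56, 10.66 and 10.74 and changed by -0.81 ± 0.18 (adjusted p = 0.00112), against -0.056 with the set (0.731). ATP6V0E2, the second e subunit, was at 9.06, 9.15 and 9.12 untreated and at 8.97, 8.98 and 8.89 with extract. It lay below on every array, and its change was -0.16 ± 0.072 (adjusted p = 0.129) and -0.27 with the set (0.0431).

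Of the cathepsins, CTSL was at 11.82, 12.06 and 11.91 with extract, above every untreated array. It rose by 0.33 ± 0.060 (1.26-fold, adjusted p = 9.24e-05), and by 0.38 with the set (0.00015). CTSA, a serine carboxypeptidase that also stabilises beta-galactosidase and neuraminidase in lysosomes, was at 11.17, 11.19 and 11.28 untreated and at 11.47, 11.48 and 11.29 with extract. Array 3 was barely above the untreated range. The rise was 0.20 ± 0.052 (adjusted p = 0.00528; 0.227 with the set). CTSB was at 9.04, 8.99 and 9.02 untreated and at 9.27, 9.22 and 9.16 with extract. Its rise of 0.20 ± 0.061 (adjusted p = 0.0187; 0.219 with the set) was lost without untreated array 2 or extract array 1 (adjusted p up to 0.1).

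At 2 h, where all arrays were of the larger set, extract alone changed 1 of the 40 genes (2.5%), beside 3.77% of all genes. That gene was ATP6V1B2, at 9.85, 9.87 and 9.90 untreated and at 9.42, 9.39 and 9.60 with extract. All 3 extract arrays were lower, and the change was -0.40 ± 0.080 (0.76-fold, adjusted p = 0.000571). It was also the sole member called for extract in irradiated cells at 2 h (-0.53 ± 0.080, adjusted p = 4.83e-06; 2.66% of all genes) and in cisplatin-treated cells at 2 h (-0.42 ± 0.080, 0.000204; 5.46% of all genes). Averaged over the 3 therapies, 2 genes were called at 2 h, where 9.28% of all genes were: ATP6V1B2 (-0.45 ± 0.046, adjusted p = 8.85e-11) and CTSK (-0.20 ± 0.067, 0.0427).

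Extract was then compared within irradiated cells at 24 h, where each group had 1 array of the larger set and 2 of the smaller. There 2 genes fell and 0 rose (8.23% of all genes), and with the set as a term 4 were called (9.95%). ATP6V1B2 was at 10.57, 10.47 and 10.57 after radiation and at 10.09, 9.98 and 10.13 after extract and radiation, without overlap. The change was -0.47 ± 0.080 (adjusted p = 1.62e-05), and -0.49 within the smaller set, with 2 arrays a group (0.000979). In the larger set, where each group had 1 array, the difference between those arrays was -0.45. ATP6V0E2 was at 9.28, 9.20 and 9.10 and at 9.03, 8.94 and 8.79, again without overlap. It fell by 0.27 ± 0.072 (adjusted p = 0.00797), a call lost without radiation array 1 or without array 3 of the combination (up to 0.0869). The other 2 genes called with the set were CTSA (0.15 ± 0.047, adjusted p = 0.0246) and ATP6V0E1 (0.19 ± 0.063, 0.0424). With the receptor mean as a covariate the split was 1 higher and 2 lower. That of all genes was then 655 and 1323 (469 and 1047 without it).

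Extract within cisplatin-treated cells at 24 h gave 6 calls, 1 higher and 5 lower (15%, beside 28.6% of all genes), and 2 with the set as a term (10.2%). The 2 were ATP6V1B2 and CTSA. ATP6V1B2 was at 10.18, 10.16 and 10.23 with cisplatin and at 9.69, 9.86 and 9.67 with cisplatin and extract, a change of -0.45 ± 0.080 (adjusted p = 4.59e-05; 0.000679 with the set). CTSA was at 11.09, 11.23 and 11.19 and at 11.37, 11.44 and 11.41, and rose by 0.23 ± 0.052 (0.00121; 0.014 with the set). For both, the groups did not overlap. The 4 others fell in the fit without the set: ATP6V1D (-0.64 ± 0.18, adjusted p = 0.00993), CTSO (-0.49 ± 0.18, 0.042), ATP6AP1 (-0.49 ± 0.18, 0.0381) and ATP6V1C1 (-0.44 ± 0.15, 0.0266). ATP6V1D, the D subunit of the rotor, was at 7.42, 7.28 and 7.83 with cisplatin and at 6.63, 7.16 and 6.84 with both. ATP6V1C1, the stator subunit C1, was at 8.23, 7.80 and 8.40 and at 7.50, 7.82 and 7.78. CTSO was at 6.78, 6.81 and 7.14 and at 5.93, 6.70 and 6.64, and ATP6AP1 at 11.27, 10.55 and 11.37 and at 10.60, 10.63 and 10.50. For ATP6AP1 and ATP6V1C1, cisplatin array 2, of the smaller set, lay within or near the range of the combination. With the set their adjusted p was 0.147, 0.453, 0.897 and 0.418. All 4 calls were also lost without cisplatin array 3 or without array 1 of the combination, those of CTSO, ATP6V1C1 and ATP6AP1 without cisplatin array 1, and that of ATP6AP1 without array 2 or 3 of the combination (adjusted p up to 0.381). The count was 12 without cisplatin array 2, 2 without cisplatin array 3, and 3 without cisplatin array 1 or without array 1 of the combination. With the receptor mean as a covariate the split was 1 higher and 1 lower. That of all genes was then 681 and 650 (2683 and 2592 without it).

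ATP6V1B2 thus had the widest span of group means of the 40 genes: 1.07, from 9.47 ± 0.14 (SD, n = 3) after cisplatin with extract at 2 h to 10.54 ± 0.058 after radiation at 24 h. The 5 lowest groups all contained extract: cisplatin with extract (9.47), extract alone (9.47) and radiation with extract (9.53) at 2 h, then extract alone (9.68) and cisplatin with extract (9.74) at 24 h. The 9 extract arrays at 2 h ran from 9.31 to 9.66. Untreated cells lay at 9.87 ± 0.029 at 2 h and 10.01 ± 0.056 at 24 h. The 6 groups without extract at 2 h, and untreated, nicotine, cisplatin with nicotine and radiation with extract at 24 h, all had means from 9.87 to 10.07, with each step between neighbours smaller than the median group SD of 0.088. The highest were cisplatin (10.19 ± 0.038), radiation with nicotine (10.38 ± 0.19) and radiation (10.54 ± 0.058) at 24 h. Radiation with extract at 24 h (10.07 ± 0.074) lay by the untreated cells of that time (10.01). Averaged over therapies, extract lowered it by 0.42 ± 0.046 at 24 h (adjusted p = 4.31e-10), and by 0.38 ± 0.052 with the set (2.01e-07). That mean effect was called for 11 genes (27.7% of all genes), and for 6 with the set (13.1%). ATP6V1B2, ATP6V0E2 (-0.19 ± 0.041), CTSA (0.20 ± 0.030), CTSL (0.15 ± 0.035) and CTSD (0.11 ± 0.038) were called in both fits. ATP6AP1 (-0.47 ± 0.10), ATP6V1D (-0.38 ± 0.11), ATP6V1C1 (-0.26 ± 0.087), ATP6V0D1 (-0.19 ± 0.043), CTSV (-0.18 ± 0.064) and ATP6V1E2 (0.20 ± 0.048) were called without the set only, and ATP6V0E1 with it only (0.15 ± 0.043). CTSV and ATP6V1E2 lie under the receptor level.

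**Figure D4:**
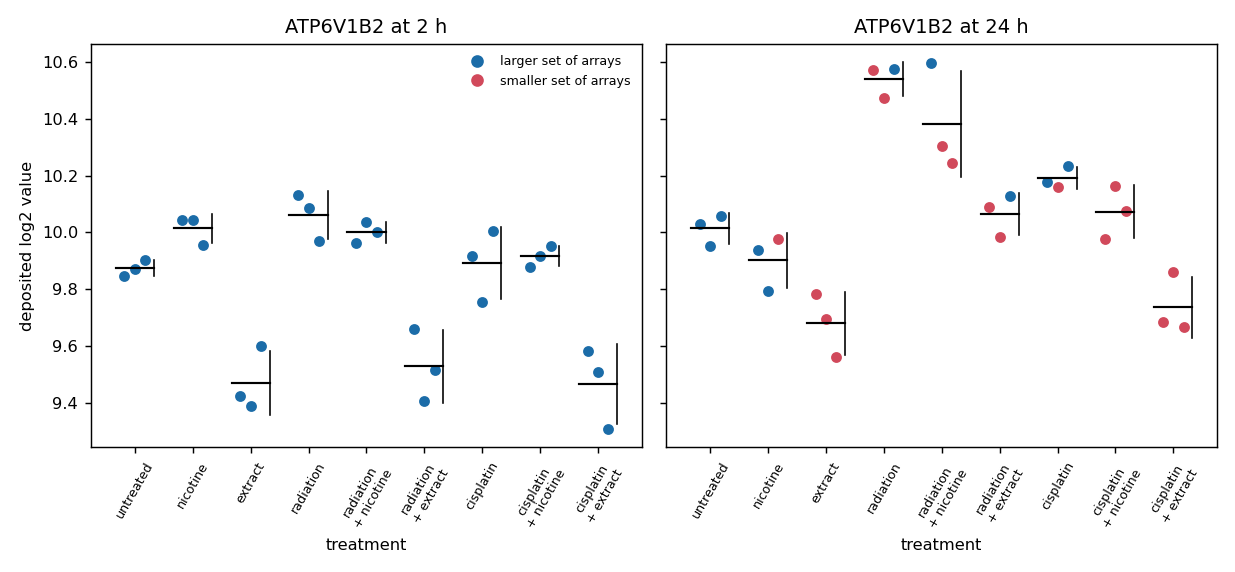
Deposited log2 value of ATP6V1B2 on every array, by treatment, at 2 h (left) and 24 h (right). Points are arrays, horizontal lines group means and vertical lines ± 1 SD (n = 3); red points belong to the smaller set. The 9 extract arrays at 2 h lie between 9.31 and 9.66, and the 3 arrays of radiation alone at 24 h at 10.47 to 10.57.

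Radiation was also tested in extract-treated cells at 24 h, where 3 genes were called (2 higher, 1 lower; 7.5%, beside 14.2% of all genes), and the same 3 with the set as a term (16.6%). Under quantile normalization the split was 5 higher and 1 lower, and with the receptor mean as a covariate 4 and 1. For all genes these splits were 1259 and 1547, and 1313 and 2035 (777 and 1834 without either). ATP6V1B2 rose by 0.38 ± 0.080 (adjusted p = 0.000358). CTSO was at 6.35, 6.31 and 6.03 with extract and at 6.80, 7.00 and 7.43 with both, and rose by 0.84 ± 0.18 (1.79-fold; 0.000714). ATP6V0A2 was at 8.69, 8.54 and 8.55 with extract and at 8.19, 8.01 and 8.17 with both, and fell by 0.47 ± 0.076 (0.72-fold; 5.02e-06). No 2 of these groups overlapped, which is no further support for genes picked as called. The 3 calls held under each of the alternatives run and without each array. The test of whether extract changed the effect of radiation called 0 of the 40 genes (10 with an unadjusted p under 0.05) and 2.57% of all genes. With the set it called 0 as well (5 with an unadjusted p under 0.05; 1.24% of all genes). The smallest p were those of LAMP1 (-0.36 ± 0.11, adjusted p = 0.0525, 0.476 with the set) and ATP6V0E1 (0.50 ± 0.15, 0.0598, 0.69 with the set). For ATP6V1B2 it was -0.14 ± 0.11 (0.612). Without radiation array 3 the interaction called 3 members, and 1 without extract array 2 or without array 1 or 2 of the combination.

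In nicotine-treated cells at 24 h radiation changed 6 genes (5 higher, 1 lower; 15.3% of all genes), and 8 with the set (17.1%). ATP6V1B2 (0.48 ± 0.080, adjusted p = 1.44e-05), CTSL (0.20 ± 0.060, 0.0147), CTSK (0.54 ± 0.12, 0.000633), CTSF (0.30 ± 0.077, 0.00353) and ATP6V1G1 (0.24 ± 0.071, 0.0141) rose, and ATP6V0A2 fell (-0.25 ± 0.076, 0.017). These comparisons share no array with those in cells without nicotine. ATP6AP2 and CTSO were called with the set only (adjusted p = 0.00344 and 0.0131). On the array of the larger set ATP6AP2 was at 10.82 and CTSO at 7.25, and on the 2 of the smaller set at 9.97 and 10.10 and at 6.63 and 6.21.

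**Figure D5:**
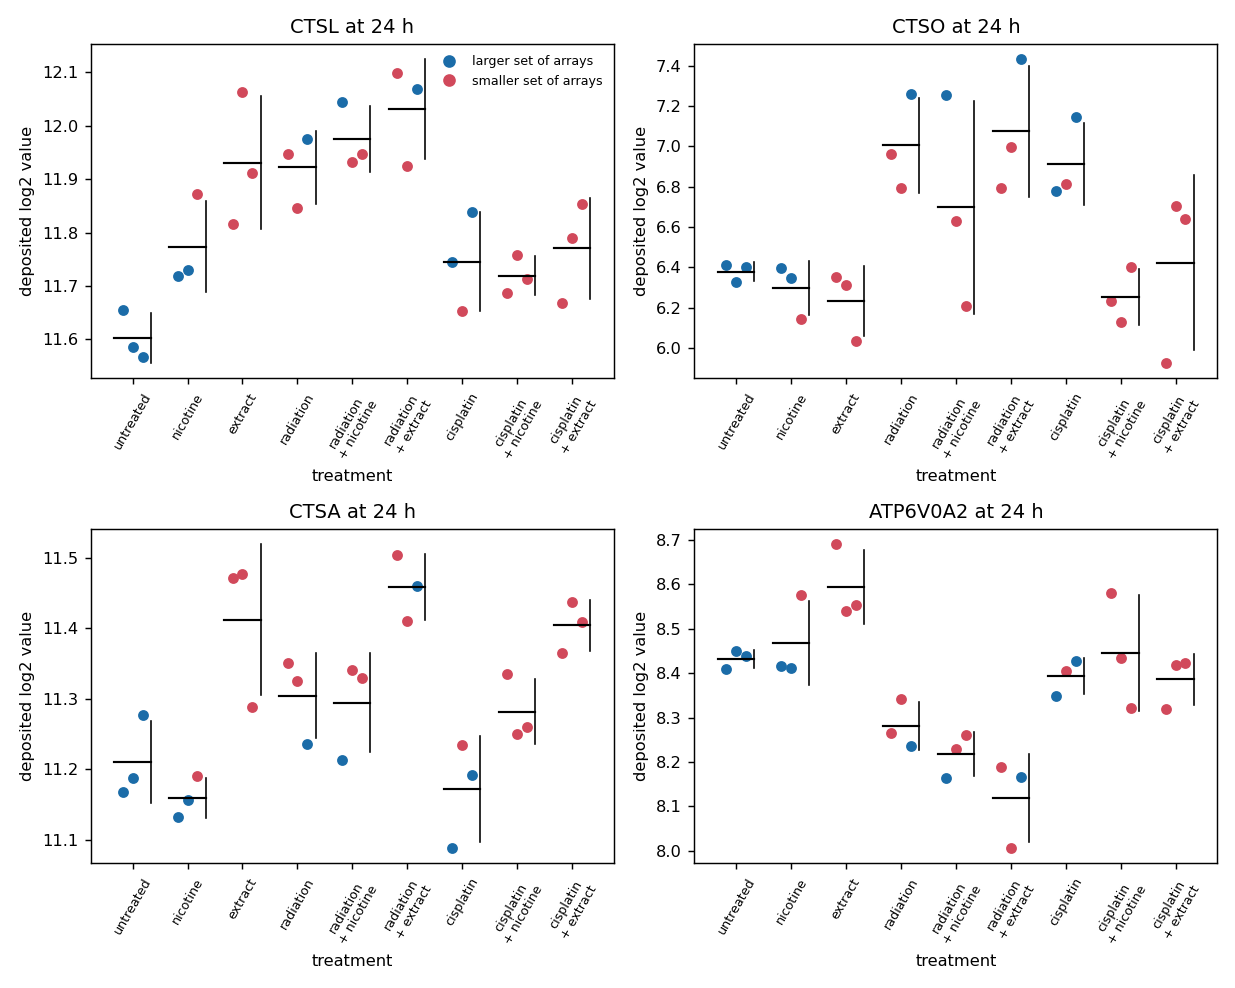
Deposited log2 value of CTSL, CTSO, CTSA and ATP6V0A2 on each array at 24 h, by treatment. Points are arrays, horizontal lines group means and vertical lines ± 1 SD (n = 3); blue is the larger and red the smaller set. The group mean of CTSL is lowest in untreated cells (arrays at 11.57 to 11.66), and ATP6V0A2 lies at 8.01 to 8.34 in the 3 irradiated groups and at 8.32 or higher in the others.

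Cisplatin alone at 24 h changed 2 genes, both lower (5%, beside 3.8% of all genes). Its untreated arrays are those used for radiation, extract and nicotine alone at 24 h, so these comparisons are not independent. ATP6V1F was at 10.08, 10.16 and 10.23 untreated and at 9.90, 9.70 and 9.80 with cisplatin, and fell by 0.35 ± 0.087 (adjusted p = 0.0141). ATP6V0D1 was at 10.70, 10.40 and 10.73 with cisplatin, below the untreated 10.91 to 10.95, and fell by 0.32 ± 0.074 (0.00868). For both, cisplatin array 2, the only one of the smaller set, was the lowest. Neither was called without that array (adjusted p = 0.0859 and 0.113), nor ATP6V1F without untreated array 2 or 3. With the set as a term both were called and CTSO was added (0.68 ± 0.16, adjusted p = 0.00902), with 6.16% of all genes. CTSO was at 6.78, 6.81 and 7.14 with cisplatin and at 6.32 to 6.41 untreated. Averaged over pretreatments, cisplatin was called for 4 genes at 24 h (5.03% of all genes) and for 5 with the set (2.88%). ATP6V1F was not among them (-0.13 ± 0.050, adjusted p = 0.13, 0.23 with the set). ATP6V0D1 (-0.18 ± 0.043, adjusted p = 0.00701) and CTSZ (-0.17 ± 0.037, 0.00406) were called in both fits, ATP6AP1 (-0.35 ± 0.10, 0.0343) and ATP6V0A1 (0.14 ± 0.042, 0.0423) without the set only, and ATP6AP2, CTSO and ATP6V1B2 with it only (0.00115, 0.0243 and 0.0488).

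Radiation stood above cisplatin at 24 h for 3 genes (13% of all genes) and for 4 with the set as a term (13.2%), and below it for 0. The 3 were ATP6V1B2 (0.35 ± 0.080, adjusted p = 0.00161), CTSF (0.32 ± 0.077, 0.00252) and CTSL (0.18 ± 0.060, 0.0417), and the fourth was ATP6AP2 (0.24 ± 0.077, 0.032). For CTSF the cisplatin arrays were at 7.05, 7.14 and 7.09, and for CTSL at 11.75, 11.65 and 11.84. Both lay below all 3 irradiated arrays. The CTSL call was lost without radiation array 1 or 3 or cisplatin array 1 or 2 (adjusted p up to 0.14). The count was 6 without radiation array 3 or without cisplatin array 2.

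Nicotine alone changed 0 of the 40 genes at 24 h (3 with an unadjusted p under 0.05; 0.00543% of all genes called), and with the set 0 (4; 0.00543%). CTSL was at 11.72, 11.73 and 11.87, a difference of 0.17 ± 0.060 (adjusted p = 0.637), and ATP6V1F at 9.95, 10.05 and 9.74, a difference of -0.24 ± 0.087 (0.637). Averaged over therapies, nicotine was called for 2 genes at 24 h (5.21% of all genes), ATP6V1G3 (0.28 ± 0.073, adjusted p = 0.0192) and CTSO (-0.35 ± 0.11, 0.043), and with the set for 0 (4.05%; adjusted p = 0.0737 and 0.227). Extract against nicotine at 24 h gave 4 genes, all higher with extract (10%, beside 12.8% of all genes): ATP6V1E2 (0.27 ± 0.084, adjusted p = 0.0224), CTSA (0.25 ± 0.052, 0.00061), CTSB (0.20 ± 0.061, 0.0198) and CTSD (0.20 ± 0.065, 0.0326). ATP6V1E2, at a mean of 5.60, lies under the receptor level of 6.12, so its difference is one between values near background. With the set as a term CTSA and CTSD were called (6.6%). With quantile normalization the split was 5 higher and 2 lower, and with the receptor mean as a covariate 5 and 3. For all genes these splits were 1579 and 777, and 2262 and 920 (1807 and 542 without either). Nicotine arrays were at 5.49, 5.52 and 5.62 for ATP6V1E2, 11.13, 11.16 and 11.19 for CTSA, 9.06, 8.94 and 9.04 for CTSB, and 11.26, 11.29 and 11.26 for CTSD. Extract arrays were at 5.85, 5.81 and 5.79, at 11.47, 11.48 and 11.29, at 9.27, 9.22 and 9.16, and at 11.47, 11.45 and 11.50. No gene of the 4 overlapped between the groups, but the 4 were picked as called, so this is no further support. Leaving out 1 array, CTSA kept its call throughout. CTSB lost it without nicotine array 2 or extract array 1, ATP6V1E2 without these or nicotine array 1, and CTSD without any array but nicotine array 3 (adjusted p up to 0.152). The count ran from 1 without nicotine array 2 to 8 without nicotine array 3, with 2 without nicotine array 1.

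Nicotine in cisplatin-treated cells at 24 h gave 5 calls (1 higher, 4 lower; 17.8% of all genes). CTSO was at 6.23, 6.13 and 6.40 with both, below the cisplatin arrays (6.78 to 7.14), and fell by 0.66 ± 0.18 (adjusted p = 0.018). ATP6V1D was at 6.95, 6.86 and 7.16, also below (7.28 to 7.83), and fell by 0.52 ± 0.18 (0.0431). ATP6V1C1 was at 7.46, 7.79 and 7.65 (-0.51 ± 0.15, 0.0225) and ATP6AP1 at 10.45, 10.58 and 10.69 (-0.49 ± 0.18, 0.049), in both cases close to or overlapping cisplatin array 2. ATP6V1G3, under the receptor level, was at 5.27, 4.92 and 4.86 against 4.51, 4.72 and 4.49 (0.44 ± 0.13, 0.0202). With the set as a term it gave 0, with 5 at an unadjusted p under 0.05 and 0.863% of all genes called. The combination was wholly of the smaller set, and 2 of the 3 cisplatin arrays were of the larger. The remaining 3 comparisons at 24 h called 0 of the 40 genes. Nicotine in irradiated cells had 2 members with an unadjusted p under 0.05 and 0.00543% of all genes called (4 and 0.00543% with the set), with the smallest p for ATP6V1G3 (0.30 ± 0.13, adjusted p = 0.816) and ATP6V0E1 (0.22 ± 0.11, 0.88). Cisplatin in nicotine-treated cells had 11 and 0.451% (2 and 0.0923% with the set), with ATP6AP1 (-0.58 ± 0.18, adjusted p = 0.115, 1 with the set) and ATP6V1G3 (0.33 ± 0.13, 0.21). Cisplatin in extract-treated cells had 5 and 0.0814% (7 and 0.233% with the set). There, CTSZ (-0.20 ± 0.065, adjusted p = 0.241) and CTSB (-0.17 ± 0.061, 0.264) had the smallest p.

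At 2 h, radiation alone called 0 of the 40 genes (2 with an unadjusted p under 0.05; 0.304% of all genes called), cisplatin alone 0 (3; 0.00543%) and nicotine alone 0 (0; 0%). The smallest p were those of ATP6V1B2 (0.19 ± 0.080, adjusted p = 0.681) and ATP6V1E2 (0.17 ± 0.084, 0.87) for radiation, CTSF (-0.16 ± 0.077, 1) and CTSH (-0.19 ± 0.088, 1) for cisplatin, and ATP6V1B2 (0.14 ± 0.080, 1) and ATP6V1E2 (0.14 ± 0.084, 1) for nicotine. Combined treatments at 2 h called 0 members as well: radiation in nicotine-treated (0 with an unadjusted p under 0.05; 0.228% of all genes called) and in extract-treated cells (1; 0.157%), nicotine in irradiated (1; 0%) and in cisplatin-treated cells (0; 0%), and cisplatin in nicotine-treated (0; 0%) and in extract-treated cells (2; 0%). In these the smallest adjusted p were those of ATP6V1G3 with radiation (-0.42 ± 0.13, 0.543) and with cisplatin (-0.33 ± 0.13, 0.687) in extract-treated cells, then ATP6V1F with cisplatin there (0.21 ± 0.087, 0.713). Every other pair had an adjusted p of 1: ATP6V1G1 with radiation in extract-treated cells (0.12), CTSF (-0.12) and CTSB (-0.095) with radiation in nicotine-treated cells, CTSS (0.24) and ATP6V1C2 (-0.29) with nicotine in irradiated cells, ATP6V0D1 (0.12) and ATP6V0A2 (0.13) with nicotine in cisplatin-treated cells, and ATP6V1G3 (0.22) and CTSS (0.20) with cisplatin in nicotine-treated cells. A test of any difference among the 9 groups of a time called 1 gene at 2 h, ATP6V1B2 (adjusted p = 6.3e-10; 7.23% of all genes). At 24 h it called 19 (47.5%, beside 47.6% of all genes), and 17 with the set (41.1%). The smallest adjusted p at 24 h were those of ATP6V1B2 (2.03e-12), CTSL (2.4e-07) and CTSA (4.95e-06).

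Untreated cells at 24 h were compared with those at 2 h, all in the larger set. Of the 40 genes 0 were called (1 with an unadjusted p under 0.05; 1.92% of all genes called), and 1 with the set as a term (3.61%). That was ATP6V1C1, at 8.39, 8.57 and 8.34 at 2 h and at 8.11, 7.99 and 8.01 at 24 h. The change was -0.40 ± 0.15 (adjusted p = 0.185) and, with the set, -0.40 ± 0.12 (0.0453). CTSL differed by -0.12 ± 0.060 (0.372).

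The effect of radiation differed between 24 h and 2 h for 8 genes (20%, beside 13% of all genes), 5 more positive and 3 more negative at 24 h, and for 6 with the set (12.8%). CTSO (0.77 ± 0.23, adjusted p = 0.0208) and ATP6AP2 (0.37 ± 0.11, 0.0181) were among these 6 and were called with the set only. Under quantile normalization the split was 6 and 1, and that of all genes 1455 and 1311 (1117 and 1279 without it). ATP6V0A1 (0.40 ± 0.10, adjusted p = 0.00498) and CTSL (0.29 ± 0.085, 0.0146) kept this call under the 10 alternatives run and without each of the 12 arrays. At 2 h ATP6V0A1 was at 9.88, 9.87 and 9.88 untreated and at 9.69, 9.77 and 9.85 irradiated, and CTSL at 11.77, 11.72 and 11.68 and at 11.77, 11.73 and 11.75. Without an array the count ran from 3 to 8, with 3 without radiation array 1 or 2 of 24 h. The effect of extract differed between the times for 0 genes (11 with an unadjusted p under 0.05; 6.29% of all genes called), and with the set for 0 (6; 1.37%). The smallest p were those of CTSB (0.26 ± 0.086, adjusted p = 0.0591) and ATP6V0D1 (-0.31 ± 0.10, 0.0644).

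Other lysosomal genes were taken from lists of 8 kinds. Their counts stand beside 21% of all genes called for radiation alone at 24 h (18.9% with the set) and 16.1% for extract alone (4.52% with the set), and nothing particular to a list is read from them. Of 30 measured hydrolases other than cathepsins, radiation alone at 24 h raised 6 and lowered 1, and with the set as a term 12 and 1 (medians 0.14 for the list and 0.033 for all genes, 0.19 and -0.012 with the set), that is 7 of 30 beside 21% of all genes and 13 of 30 beside 18.9%. SMPD1, acid sphingomyelinase, rose by 0.51 ± 0.11 (adjusted p = 0.000316), GAA, acid alpha-glucosidase, by 0.42 ± 0.080 (8.78e-05) and HEXA, a hexosaminidase subunit, by 0.36 ± 0.10 (0.0063). GLA, alpha-galactosidase A, fell by 0.52 ± 0.074 (5.56e-07). All 4 were called with the set too (0.0116, 0.000498, 0.000394 and 9.22e-07). For extract alone at 24 h the hydrolases had 0 higher and 2 lower, and with the set 3 and 1. PPT1, a thioesterase, was among the 2, at -0.83 ± 0.23 (0.00778) and 0.13 with the set (0.456). ASAH1, acid ceramidase, was higher with the set only at 24 h (0.61 ± 0.10, 2.85e-05), and rose at 2 h (0.38 ± 0.11, 0.0363).

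Of 23 other membrane proteins, radiation raised 4 and lowered 2, 6 of 23 beside 21% of all genes (5 and 1 with the set, beside 18.9%). TMEM106B (0.39 ± 0.096, adjusted p = 0.00199) and SCARB2, the receptor that carries glucocerebrosidase (0.30 ± 0.093, 0.0132), were among the 4, and were called with the set (0.000102 and 4.24e-05). Extract at 24 h raised 5 and lowered 3, and with the set raised 1, TMEM106B (0.60 ± 0.11, 7.97e-05). Of 26 autophagy genes radiation raised 4 and lowered 2, 6 of 26 beside 21% of all genes (5 and 0 with the set, beside 18.9%), with DRAM1, a p53 target on lysosomes, at 0.82 ± 0.12 (1.16e-06) and WIPI1 at 0.51 ± 0.063 (1.97e-08), both also called with the set (4.79e-06 and 1.66e-07). Extract at 24 h gave 2 higher and 6 lower there, and 1 and 0 with the set. Of 18 sorting genes radiation raised 2 and lowered 1 (3 and 1 with the set), with IGF2R, a mannose 6-phosphate receptor, at 0.41 ± 0.076 (5.16e-05; 0.000732 with the set). Extract at 24 h raised 2 and lowered 2, and 0 with the set.

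Of 10 genes of the MITF and TFE family and its regulators, MITF fell with extract, by 0.51 ± 0.092 at 2 h (adjusted p = 0.00014) and by 0.49 ± 0.092 at 24 h (0.000162; 0.0329 with the set). At 24 h it also fell with extract in irradiated cells (-0.51 ± 0.092, adjusted p = 4.83e-05, 1.79e-05 with the set) and in cisplatin-treated cells (-0.56 ± 0.092, 1.53e-05, 0.000436 with the set). It rose with radiation at 24 h, by 0.26 ± 0.092 (0.0384; 0.00852 with the set). TFE3 fell with extract at 2 h, by 0.27 ± 0.069 (0.0131). No other gene of that list was called for radiation alone at 24 h or for extract alone at either time. Of 8 measured pump partners outside the naming rule, radiation raised DMXL1 (0.43 ± 0.12, 0.00636, 0.0138 with the set) and lowered the assembly factor VMA21 (-0.44 ± 0.084, 8.02e-05, 0.0015 with the set). Extract at 24 h lowered 2, TMEM9 (-0.52 ± 0.098, 0.000162) and VMA21 (-0.24 ± 0.084, 0.0469), and 0 with the set. Of 15 cathepsin inhibitors radiation raised SERPINB1 (0.58 ± 0.098, 1.27e-05) and CST3 (0.25 ± 0.079, 0.0186) and lowered CSTB, cystatin B (-0.35 ± 0.058, 9.59e-06). With the set SERPINB1 and CSTB were called (8.08e-05 and 8.11e-05) and CST3 was not (0.162). CSTB also fell with extract (-0.25 ± 0.058, 0.00165) and cisplatin (-0.26 ± 0.058, 0.00809) at 24 h, though with the set not with extract (0.0631). Of 12 genes of the Ragulator and mTORC1 list radiation raised 1 and lowered 3, and with the set 1 and 1. TSC2 rose (0.45 ± 0.090, 0.000159, 0.0051 with the set). Extract at 24 h gave 2 higher and 3 lower there, and 0 with the set.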

How the data were processed

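Total RNA of 54 wells was labelled and hybridised to 1 array each. Per the submitters' processing notes the authors processed the arrays with Affymetrix Power Tools 1.15.0, and no source used here states the background, normalization and summary steps. The deposited values run from 0.89 to 13.81 and were taken as log2, a base inferred from that range. Per the file headers the table holds 33297 rows. Of these, 19460 had 1 gene symbol, 1754 several and 12083 none in GEO's platform annotation. The highest-mean row stood for a gene (18417 genes, 769 with more than 1 row, none of them a member).

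With limma 3.58.1 in R 4.3.3, 1 model of 18 group means was fitted to all 54 arrays (36 residual degrees of freedom), with eBayes and a trend. Contrasts were tested two-sided, p adjusted by Benjamini-Hochberg over all genes, and called under 0.05. The number of arrays, 3 a group, limits the precision. P-values measure the spread between wells. Statements that groups did not overlap describe the values printed, and the share of all genes without overlap was not counted. The scripts were tested on simulated data with independent noise for each gene and array. That checks the code and not whether the model fits these arrays.

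Members called in a comparison were named, at most 8 each way. Where none was called, the 2 with the smallest p were given. Of each list, called genes of large change were named, at most 4 each way. The members, lists and tests were chosen with earlier results of these data known. Alternatives were quantile normalization, the receptor mean as a covariate, other variance models, rows and sample choices, a replicate block and leaving out each array. Averaging the rows of a gene was among them and could not change a member's values, since every member had a single row. The array set was added after seeing the data.

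Replicate numbers were checked in 27 comparisons by correlating same-numbered deviations from group means. Every pair was over 0.1 in 3: nicotine alone (0.115 to 0.382), extract in irradiated cells (0.325 to 0.674) and radiation in nicotine-treated cells (0.103 to 0.465), all at 24 h. Same-numbered arrays were all of the same set for extract in irradiated cells, and some were for nicotine alone and for radiation in nicotine-treated cells. The untreated arrays of 24 h were all of the larger set. A part of the sets in these correlations was not tested. Over all comparisons pairs ran from -0.728 to 0.674.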

Additional observations from a re-analysis of the deposited data

Results flagged for a closer look

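The effect of radiation alone at 24 h differed from that at 2 h, by limma's test of the difference itself, for 8 genes. These are 20% of the 40, beside 13% of all genes called (12.8% with the set as a term). The effect was more positive at 24 h for CTSK (by 0.51 on the log2 scale; adjusted p = 0.0299), ATP6V0A1 (0.40; 0.00498), CTSF (0.35; 0.0228), ATP6V1B2 (0.34; 0.0377) and CTSL (0.29; 0.0146). It was more negative for ATP6V0E1 (-0.55; 0.0112), ATP6V1F (-0.36; 0.0445) and ATP6V0D1 (-0.32; 0.0349). All 6 arrays of 2 h and the untreated arrays of 24 h belonged to the larger set, and irradiated arrays 1 and 2 of 24 h to the smaller. Of these 8 genes, ATP6V0A1, ATP6V1B2, CTSL and ATP6V0E1 were called with the set as a term (adjusted p = 0.0122, 0.0144, 0.00585 and 0.0308). CTSK, CTSF, ATP6V0D1 and ATP6V1F were not (0.106, 0.118, 0.0985 and 0.0587). Leaving out 1 of the 12 arrays in turn, ATP6V0A1 and CTSL kept the call each time, and the other 6 genes lost it in 2 (ATP6V0E1) to 9 (ATP6V1B2) cases, with an adjusted p up to 0.159. The part of the set in these differences was not tested further.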

How the results depend on the processing

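Counts below are members called. With the array set as a term they were 6 for radiation alone, 2 for extract alone, 4 for extract in irradiated cells, 2 for extract in cisplatin-treated cells, 2 for extract against nicotine (all 24 h) and 1 for untreated 24 h against 2 h. In the larger set alone they were 5 for radiation and 4 for cisplatin alone at 24 h, 1 for extract in irradiated cells, 1 for untreated cells between times, 5 for the radiation effect between times, and 2 for any difference at 2 h. In the larger set these rest on 1 array of each irradiated group and 2 of cisplatin. In the smaller set alone they were 1 for extract in cisplatin-treated cells, 1 for radiation against cisplatin and 0 for extract against nicotine, with 1 array of cisplatin or nicotine. A group of 1 array was taken to vary like the others, and calls lost in such fits say nothing about stability. Fitting only the compared groups gave 0 for cisplatin and 11 for extract alone at 24 h, 1 for extract in irradiated and 2 in cisplatin-treated cells, 1 for radiation against cisplatin, 0 for extract against nicotine, 3 for untreated cells between times, 10 for the extract effect between times and 12 for any difference at 24 h. The receptor mean as a covariate gave 4 for cisplatin alone, 2 for extract in cisplatin-treated cells, 5 for radiation in extract-treated cells, 8 for extract against nicotine, 3 for the interaction and 6 for the extract effect between times. Of all genes it called 524 higher and 676 lower for cisplatin alone (396 and 304 without it). For the interaction these were 411 and 730 (135 and 339), and for the extract effect between times 1302 and 743 (857 and 302). Quantile normalization gave 6 for radiation in extract-treated cells, 7 for radiation against cisplatin, 7 for extract against nicotine, 2 for the interaction and 2 for the extract effect between times. Of all genes it called 1351 higher and 1297 lower for radiation against cisplatin (947 and 1456 without it). For the interaction these were 238 and 539, and for the extract effect between times 782 and 495. Genes above the median level gave 5 for radiation against cisplatin, 7 for extract against nicotine, 3 for the interaction and 7 for the extract effect between times. Dropping the trend, or testing all rows, gave 5 for the radiation effect between times. Mean effects gave 4 for cisplatin, 11 for extract and 2 for nicotine at 24 h (5, 6 and 0 with the set), and 2 for extract at 2 h.

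Leaving out 1 array at a time gave 6 to 10 for radiation and 0 to 2 for cisplatin alone at 24 h, 1 to 3 and 2 to 12 for extract in irradiated and cisplatin-treated cells, 2 to 6 for radiation against cisplatin, 1 to 8 for extract against nicotine, 0 to 3 for the interaction, 3 to 8 and 0 to 1 for the radiation and extract effects between times, and 1 to 2 for any difference at 2 h. Directions reversed with the set as a term for ATP6AP1 with radiation (0.0084; adjusted p = 0.966) and with extract in cisplatin-treated cells (0.016; 0.897), and for ATP6V0E1 with extract (0.074; 0.65). They also reversed for ATP6AP1 in the larger set alone (0.0046; 0.984) and the smaller alone (0.023; 0.94), where 1 treated array or 1 cisplatin array stood against 3. Of 47 called members' results, 25 stayed called with the set, 40 with quantile normalization, 42 with the receptor mean as a covariate, and 47 with the replicate block, which gave 11 for radiation and 7 for extract alone at 24 h and changed no call. No scaling moved the median of all genes by more than 0.046. The causes were not tested. Values carry no depth. For the 10 genes no higher than the receptor level, a lack of difference says little.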

Other observations

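Deviations from the group means moved together for some pairs of the 40 genes over the 54 arrays. The 3 highest correlations were those of ATP6AP1 with ATP6AP2 (0.847), the accessory genes, of ATP6V1C1 with ATP6V1D (0.832) and of ATP6V0E1 with ATP6AP1 (0.828). The subunits of the catalytic ring, ATP6V1B2 and ATP6V1A, were at 0.763. The lowest was that of ATP6AP2 with CTSF (-0.585). The arrays share the 2 sets, between which all of these genes but ATP6V1B2 and ATP6V1A were called, and the correlations are given as a description.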
